A study of Mus musculus with 12 samples.

Results

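Adventitial fibroblast nuclei are a small fraction of the nuclei released from whole mouse lung, and they were picked here by 4 genes that mark the fibroblasts of the sheath around large vessels and airways: Pi16, Scara5, Gfpt2 and Opcml. A nucleus was a member when it passed the limits on detected genes (200 to 6000) and on mitochondrially encoded transcripts (at most 5% of its unique molecular identifiers, UMIs, each of which stands for a captured RNA molecule), held at least 2 UMIs over at least 2 of the 4 genes with Pi16 or Scara5 among them, and held more UMIs from these 4 genes than from 11 genes of other stromal cells (Itga8, Scube2, Adra1a, Agtr1b, Ppp1r3a, Cthrc1, Postn, Rtkn2, Kit, Ednrb and Wt1). Of 49163 barcodes, 47319 passed the limits and 356 were members, 0.752% of the nuclei. The 15 genes of the rule chose the members, so their values are described and not tested.

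The study used single-nucleus RNA sequencing of lungs from C57BL/6J mice, 7 weeks old at instillation, to ask how inhibition of the receptor EphB4 alters fibroblast transcripts in bleomycin injury. Bleomycin, which damages the alveolar epithelium and is followed by fibrosis, was given into the trachea at 1.2 U/kg, with PBS as its control, and the mice from day 5 were dosed by mouth each day for 5 days with NVP-BHG712, a small-molecule EphB4 kinase inhibitor, or its vehicle. Lungs were taken at day 14. The 4 groups held 3 libraries each: PBS with vehicle (PBS_vehicle), PBS with the inhibitor (PBS_NVP), bleomycin with vehicle (Bleo_vehicle) and bleomycin with the inhibitor (Bleo_NVP). All mice were wild type, and nuclei came from frozen lung, sorted by their DNA stain, with each library from a separate lung.

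Fibroblasts of the lung adventitia lie in the connective tissue cuffs around arteries, veins and bronchi, where they lay down fibrillar collagen, decorin and microfibrils and give niches to immune cells through cytokines and complement. Alveolar fibroblasts lie instead in the thin walls of the gas-exchange region, next to type I and type II epithelial cells, and are marked by Itga8, Npnt, Scube2 and high Pdgfra. In several tissues Pi16-positive fibroblasts have been described as a reserve from which more specialised fibroblasts arise. Pi16 encodes a secreted peptidase inhibitor, Scara5 a scavenger receptor that takes up ferritin, Gfpt2 an enzyme that feeds the hexosamine pathway used for hyaluronan and glycan synthesis, and Opcml a GPI-anchored cell adhesion molecule of the immunoglobulin family.

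The libraries gave very unequal numbers of members. PBS_vehicle held 26, 21 and 10 members, PBS_NVP 61, 22 and 10, Bleo_vehicle 4, 42 and 128, and Bleo_NVP 4, 16 and 12, each in the order of replicates 1 to 3. Bleo_vehicle replicate 3 alone held 36.0% of the members, and 2 libraries had 4 each. The summed UMIs of the members were fewest in Bleo_NVP replicate 1 (7065) and most in Bleo_vehicle replicate 3 (750162), so that 1 UMI was worth 142 CPM in the first and 1.33 CPM in the other. CPM is a gene's UMIs scaled to a common total of all member UMIs in a library, and single libraries with few members move in steps of that size. Whole libraries held 3556084 to 61947690 UMIs, with a median per nucleus from 1079 to 5398. The median member held 3579 UMIs, against 4245 in alveolar fibroblast nuclei and 2362 in the other nuclei.

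Each of the 4 marker genes was read in the members of all 12 libraries. Pi16 stood at 343, 188 and 228 CPM in the members of PBS_vehicle, 319, 296 and 612 in PBS_NVP, 623, 447 and 199.96 in Bleo_vehicle, and 425, 141 and 280.3 in Bleo_NVP. Scara5 ran from 283 to 1081 CPM with a median of 551, Gfpt2 from 283 to 2491 with a median of 472, and Opcml from 1186 to 4607 with a median of 2398. The Pi16 ranges of the 4 groups overlapped. Pi16 helped to choose the members, so its values describe that choice and do not compare the groups. Alveolar fibroblast nuclei had to hold more UMIs of Itga8, Scube2 and Npnt than of the 4 marker genes. Low marker values there follow in part from that choice. In those nuclei of the same libraries Pi16 reached at most 3.88 CPM and Scara5 at most 8.11, while Gfpt2 reached 67.6 and Opcml 111. On mouse assembly GRCm38 these genes lie at chr17:29317680-29330593 (Pi16), chr14:65666403-65764826 (Scara5), chr11:49794178-49838613 (Gfpt2) and chr9:27790775-28925410 (Opcml), each on the plus strand. Each range is the whole gene, and whether reads in introns were counted is not given in the sources used here.

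The markers did not occur together in every member. A Pi16 UMI was found in 56.2% of the members, a Scara5 UMI in 80.6%, a Gfpt2 UMI in 63.5% and an Opcml UMI in 76.4%. Among alveolar fibroblast nuclei, of comparable depth, these shares were 0.440%, 0.867%, 10.9% and 6.88%. The choice of those nuclei held these shares down, so they are not the level in all fibroblasts outside the members. Gfpt2 was also found in 43.4% of nuclei with mesothelial markers, the cells of the pleural surface. All 4 genes together were seen in 73 members (20.5%), Scara5 with Opcml in 62, Scara5 with Gfpt2 and Opcml in 57, Scara5 with Gfpt2 in 37, and Pi16 with Scara5 and Opcml in 36. By library, the share of members with a Pi16 UMI went from 30.0% to 84.6%, and both extremes were PBS_vehicle libraries.

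Some members lay only just inside the rule. Exactly 2 UMIs from the 4 genes were held by 33 members and exactly 3 by 37, while 267 held at least 5, with a median of 11 and a maximum of 171. In Bleo_vehicle replicate 1 the median member held 2 of these UMIs and in Bleo_NVP replicate 1 it held 3, against 19.5 in PBS_vehicle replicate 1. No UMI from the 11 opposing genes was found in 189 members, and 23 exceeded them by a single UMI. Just outside, 91 nuclei met the marker criteria but had at least as many opposing UMIs, 9 of them exactly as many, and 1149 of the 1320 non-members with at least 2 marker UMIs drew them from Opcml and Gfpt2 without Pi16 or Scara5.

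Genes outside the rule that are known for adventitial fibroblasts were high in the members. Collagen XIV (Col14a1, chr15:55307750-55520803), a fibril-associated collagen of loose connective tissue, was detected in 59.6% of members and in 5.66% of alveolar fibroblast nuclei. Its level in the members was 698, 979 and 398 CPM in PBS_vehicle, 671, 409.7 and 1039.8 in PBS_NVP, 1494, 192 and 463 in Bleo_vehicle and 991, 719 and 966 in Bleo_NVP, against 12.9 to 35.0 in alveolar fibroblast nuclei. The lowest member value therefore lay above the highest alveolar value. Decorin (Dcn, chr10:97479609-97518143), a small proteoglycan that binds collagen fibrils, stood between 406 and 841 CPM in the members of the 12 libraries and between 0.508 and 10.99 in the alveolar fibroblast nuclei. Dpp4, another marker used for such cells, did not separate: it was found in 9.27% of members, 5.46% of alveolar fibroblast nuclei and 22.7% of endothelial nuclei. Over the 20 adventitial markers outside the rule, the summed level was 2275 to 5604 CPM in the members and 942 to 1523 CPM in alveolar fibroblast nuclei. Of 10 of these 20 tested against alveolar fibroblast nuclei in the fit given below, 8 were higher in the members and Pcolce2 was lower. Without a filter on low counts, 4 of 7 markers of peribronchial fibroblasts (Aspn, Cdh4, Fgf18 and Mapk4) were higher too and none was lower, with a median log2 difference of 1.73 beside -0.40 over all genes. In that unfiltered fit 3.33% of 22669 genes were higher and 7.09% lower.

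**Figure D1:**
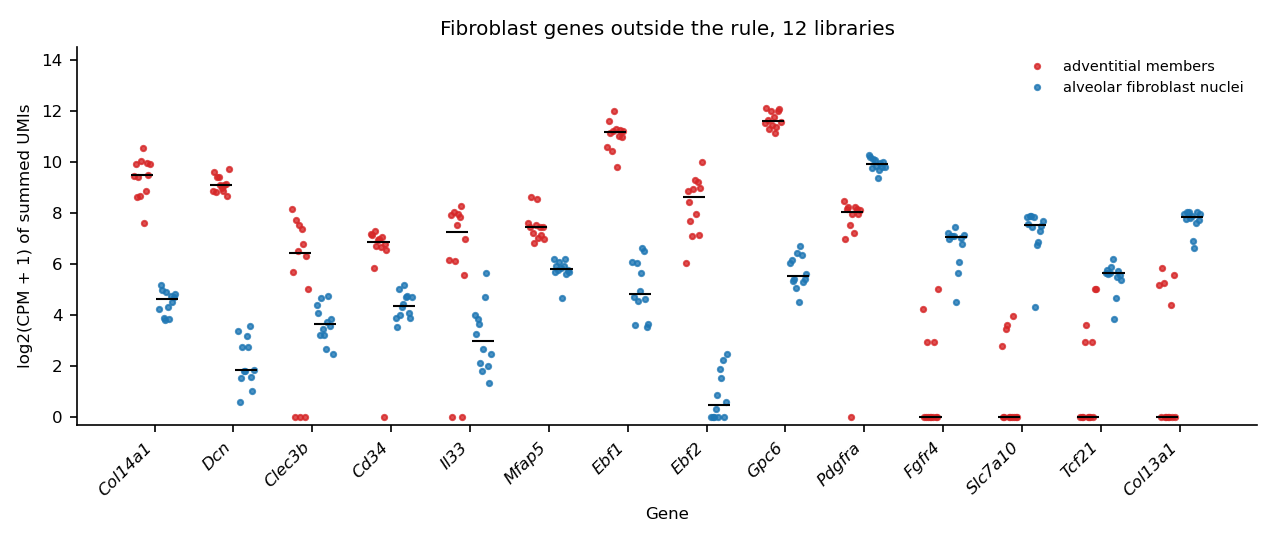
Levels of 14 fibroblast genes outside the rule in the adventitial members and in alveolar fibroblast nuclei, as log2(CPM + 1) of the summed UMIs, with 1 point per library and a line at the median of the 12. For Col14a1 and Dcn the lowest member values of 192 and 406 CPM lie above the highest alveolar values of 35.0 and 10.99 CPM, and Fgfr4, Slc7a10, Tcf21 and Col13a1 lie lower in the members.

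Markers of other cell types were present in many members and were unequal between groups. By marker rules for 11 reference classes, 219 of the 356 members also met at least 1 of them: type II alveolar in 141, type I alveolar in 95, endothelial in 81 and airway in 59. In Bleo_vehicle replicate 3 this held for 117 of 128 members (91.4%). In that library 10234 of 13277 nuclei of any kind met at least 2 class rules, a stricter count than the 1 asked of the members. The summed level of 7 type II genes in the members was 2087.5 to 2615 CPM in Bleo_vehicle, 151 to 704 in PBS_vehicle, 122 to 966 in PBS_NVP and 78.1 to 142 in Bleo_NVP. The 13 mitochondrially encoded genes summed to 4951 to 21793 CPM in Bleo_vehicle and to 367 to 1399.7 CPM in the other groups. Over 4 Schwann cell genes the summed level in the members was 0 to 283 CPM (pooled 12.2, against 7.97 in alveolar fibroblast nuclei and 5.33 in the other nuclei), with Sox10 at 0 UMIs and the highest value in Bleo_NVP replicate 1. The 5 smooth muscle genes summed to at most 22.7 CPM. The nuclei with the highest doublet scores in each library were marked, at a set rate of 0.8% of nuclei per 1000 nuclei. This marked 23 members (6.46%, against 5.72% of all nuclei), 16 of them in Bleo_vehicle replicate 3. The rate was set in advance and rises with library size, so the 2 percentages do not measure how often members are doublets. Of 48838 distinct barcode strings, 324 occurred in more than 1 library, and 2 members shared a string with a nucleus of another library.

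No difference in the share of members between groups passed a test. As a percent of nuclei that passed the limits, they were 0.689, 0.848 and 0.683 in PBS_vehicle, 0.708, 1.04 and 0.569 in PBS_NVP, 0.176, 0.630 and 0.964 in Bleo_vehicle, and 0.339, 0.754 and 0.745 in Bleo_NVP. The group means were 0.740 ± 0.0935, 0.774 ± 0.244, 0.590 ± 0.396 and 0.613 ± 0.237 percent (SD, n = 3 libraries), and the lowest values in each bleomycin group came from the libraries with 4 members. The exact 95% binomial interval, which covers counting error only, was 0.0479 to 0.450% for Bleo_vehicle replicate 1 and 0.805 to 1.15% for replicate 3 of the same group. Over the 4 pairs of groups, 2-sided exact permutation tests gave p from 0.6 to 1.0, with an adjusted p of 1.0 for each pair, in a design where 3 against 3 libraries cannot go below 0.1. Between the pooled 6 bleomycin and 6 PBS libraries the difference was -0.156 percentage points (2-sided exact permutation p = 0.288, smallest possible 0.00216), and it was -0.228 without Bleo_vehicle replicate 3 and -0.0708 without Bleo_vehicle replicate 1. Depth bears on a rule that counts UMIs, so each nucleus was also thinned to 1000 UMIs, leaving out 1100 to 4246 shallower nuclei per group, and the means were then 0.509 ± 0.104, 0.413 ± 0.183, 0.388 ± 0.196 and 0.344 ± 0.0135 percent. The thinned shares rested on 2 to 61 members per library.

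As a share of the fibroblasts alone, the members of the bleomycin groups did not overlap, a difference that missed the adjusted threshold. Members made up 4.12, 6.23 and 6.70% of the adventitial and alveolar fibroblast nuclei together in Bleo_vehicle and 1.48, 3.97 and 3.36% in Bleo_NVP, with no overlap (exact permutation p = 0.1, the smallest possible; adjusted p = 0.4). The means of both PBS groups lay between, at 3.78 ± 1.34% with vehicle and 3.79 ± 1.41% with the inhibitor (SD, n = 3). When members that met a reference class were not counted, the remaining members were 0.122 ± 0.0633% of all nuclei that passed the limits in Bleo_vehicle. The values were 0.482 ± 0.189% in PBS_vehicle and 0.491 ± 0.211% in Bleo_NVP, again without overlap (exact permutation p = 0.1 for each, adjusted p = 0.2). The order of the groups thus depended on the denominator and on which members were counted. Batch and group cannot be told apart here: the 3 Bleo_NVP libraries carry run number 4, the Bleo_vehicle libraries carry batch numbers 6, 6 and 7, and the PBS libraries carry run numbers 1 to 3.

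**Figure D2:**
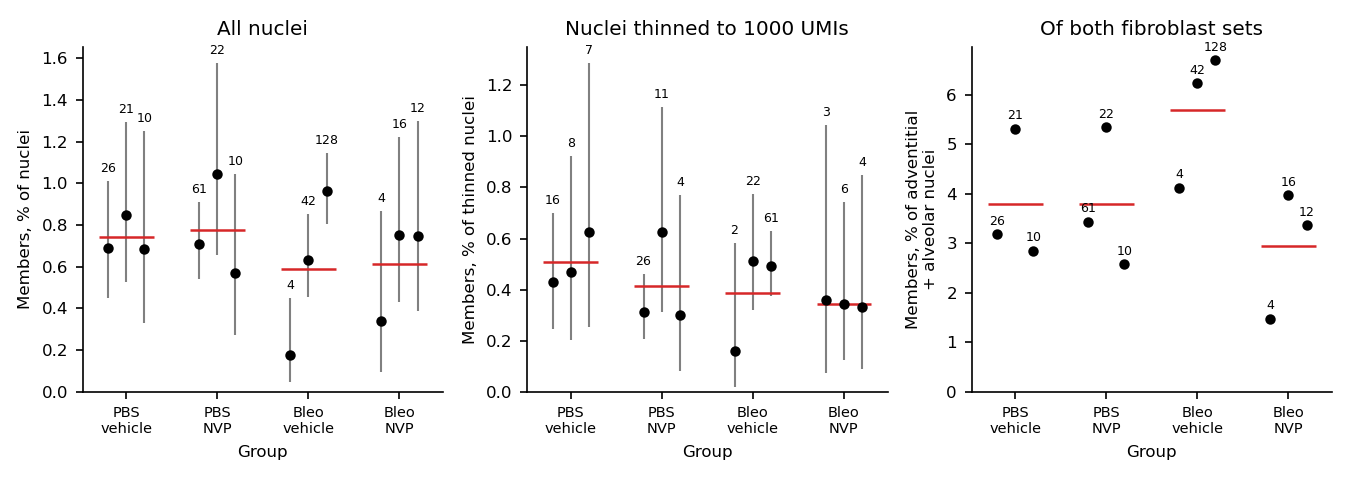
Adventitial members as a percent of nuclei that passed the limits, of nuclei thinned to 1000 UMIs, and of adventitial and alveolar fibroblast nuclei together, by group. Each point is a library with its number of members, vertical lines in the first 2 panels are exact 95% binomial intervals, horizontal lines are group means, and Bleo_NVP and Bleo_vehicle do not overlap in the third panel.

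The members differed in 1320 of 5794 genes from the 7495 alveolar fibroblast nuclei of the same libraries, taken by UMIs of Itga8, Scube2 and Npnt. Both kinds were chosen on these nuclei, so the differences describe the sets and are no independent evidence of their names. Genes were compared on UMI sums with each library as its own control (edgeR quasi-likelihood test, 2-sided, Benjamini-Hochberg adjusted p under 0.05, the genes of both rules left out): 540 were higher in the members (9.32% of those tested) and 780 lower (13.5%). The values of the tests below are from this fit, and a log2 difference is the members minus the alveolar fibroblast nuclei.

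Several transcription factors were among the genes that differed. Ebf2 (chr14:67233292-67430918), an early B-cell factor family member known in mesenchymal and adipose precursors, stood at 65.1, 464 and 341 CPM in PBS_vehicle, 205, 137 and 489 in PBS_NVP, 623, 246 and 596 in Bleo_vehicle and 142, 499.9 and 1028 in Bleo_NVP. In alveolar fibroblast nuclei it was at 0 in 5 libraries and at most 4.52 CPM in the others, and the log2 difference was 8.03 ± 0.28 (SE; adjusted p = 5.67e-64). Its relative Ebf1 (chr11:44617317-45008091) ran from 903 to 4098 CPM in the members and from 10.7 to 99.2 in alveolar fibroblast nuclei (5.59 ± 0.47, adjusted p = 7.17e-07). Twist2, a basic helix-loop-helix factor of mesenchyme, averaged 123 ± 114 against 0.501 ± 0.577 CPM (SD, n = 12 libraries). On the other side, Tcf21, a basic helix-loop-helix factor of alveolar fibroblasts, averaged 7.26 ± 11.8 CPM in the members and 45.9 ± 15.1 in alveolar fibroblast nuclei. In none of the 12 libraries did the order of these factors between the kinds of nuclei reverse.

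Matrix genes did not move as a block. The members were higher in the fibrillar collagens Col1a1 (196 ± 61.0 against 63.5 ± 31.9 CPM), Col1a2 (771 ± 147 against 279.7 ± 35.6), Col3a1 (813 ± 481 against 402 ± 95.6) and Col5a1, while Col27a1 was lower. Of 6 fibrillar collagens tested out of 11, 4 were thus higher and 1 lower, with a median log2 difference of 0.85 beside -0.07 over the 5794 genes. Of 12 other collagens tested out of 18, Col14a1 was higher (4.65 ± 0.18, adjusted p = 2.55e-71, in 12 of 12 libraries) and 6 were lower: Col13a1, a transmembrane collagen (16.3 ± 21.8 against 216 ± 54.9 CPM), Col6a3, Col23a1, Col18a1 and the basement membrane chains Col4a5 and Col4a6. Proteoglycans leaned upward, with Dcn, Gpc6, Podn, Vcan and Gpc3 higher and Ogn lower among 9 tested of 16 (median 0.94). Gpc6, a glypican that is anchored at the cell surface and modulates growth factor signalling, averaged 3304 ± 756 CPM in the members and 55.8 ± 24.9 in alveolar fibroblast nuclei.

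Elastic fibre genes were split. Mfap5, a microfibril glycoprotein, was higher in 12 of 12 libraries (194 ± 93.3 against 55.5 ± 12.8 CPM; log2 1.33 ± 0.20, adjusted p = 6.78e-09), as was Fbln1, while Mfap4, Ltbp1, Efemp1 and the cross-linking enzyme Lox were lower. Tropoelastin (Eln) did not pass the test (557 ± 258 against 785 ± 950.5 CPM, adjusted p = 0.681), and its level in the members ran from 249 to 989.7 CPM. Among 10 tested of 22 genes known from activated fibroblasts, Adam12 and Mmp14 were higher and Fn1, Tnc, Serpine2 and Thbs1 lower. Fibronectin (Fn1) averaged 230.3 ± 177 CPM against 635 ± 206, and tenascin C (Tnc), a matrix protein of injured tissue, was at 0 in the members of 7 libraries and at most 73.0 CPM in the others.

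Of 21 complement and immune-niche genes 8 were tested, and Il33, C4b, C1s1 and C3 were higher in the members and C7 lower. Il33, an alarmin that acts on innate lymphoid and regulatory T cells, averaged 149 ± 109.8 CPM in the members and 11.9 ± 13.5 in alveolar fibroblast nuclei (log2 3.47 ± 0.27, adjusted p = 6.71e-20, higher in 10 of 12 libraries, and at 0 in the members of 2). The complement genes C3 (76.6 ± 37.0 against 18.5 ± 8.68 CPM), C4b (156 ± 75.4 against 33.4 ± 17.9) and C1s1 were higher, and C7 was lower by a small amount (2601 ± 1214 against 2814 ± 422). The median of the 8 was 1.05. Il33 and C3 are also made by type II cells, whose markers were present among the members as given above, and their part in these levels was not tested.

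Receptors and ligands of growth factors divided the 2 kinds. Pdgfra, the platelet-derived growth factor receptor that marks most lung fibroblasts, was lower in the members of 12 of 12 libraries (229.6 ± 98.7 against 971 ± 157 CPM; log2 -2.32 ± 0.20, adjusted p = 3.98e-24). Pdgfrb, its relative better known from mural cells, was higher in 12 of 12 (127 ± 87.3 against 19.7 ± 24.9). Of 20 tested of 34 growth factor, Wnt and BMP genes, 7 were higher, among them the secreted glycoprotein Fstl1 (489 ± 231 against 114 ± 17.6 CPM), Igf1 and Tgfb3, and 5 were lower, among them Bmp5 (226 ± 117 against 745 ± 232), Wnt2, Tgfbr1 and Tgfbr2. The median of these 20 was -0.31. Of 10 alveolar fibroblast markers tested of 11, 8 were lower, including Slc7a10, Fgfr4, Inmt and Limch1 (926 ± 525 against 4889 ± 845 CPM), and Gpc3 was higher.

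Other genes with large differences encode proteins of several kinds. Lsamp, a relative of Opcml in the same family of adhesion molecules, stood at 834, 1983 and 1877 CPM in PBS_vehicle, 1144, 1377 and 1896 in PBS_NVP, 249, 575 and 798 in Bleo_vehicle and 4105, 1375 and 1090.2 in Bleo_NVP, and at 3.75 to 18.9 CPM in alveolar fibroblast nuclei. The teneurin Tenm3, the sodium-activated potassium channel Kcnt2, the membrane-cytoskeleton adaptor Ank2 and the long noncoding RNA Meg3 were higher in 12 of 12 libraries, with log2 differences of 6.01, 6.01, 5.16 and 6.89. Lower in 12 of 12 were the sodium channel Scn3a (11.5 ± 18.6 against 509 ± 240.4 CPM), the sulfur amino acid enzyme Cdo1 (13.4 ± 17.7 against 365 ± 78.2), the matrix protein Spon1 (119.9 ± 124 against 1822 ± 344) and the actin-binding protein Nebl (327 ± 302 against 4831 ± 757). Best3, an anion channel, gave 5 UMIs in the members over the 12 libraries, below what a fold can rest on.

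**Figure D3:**
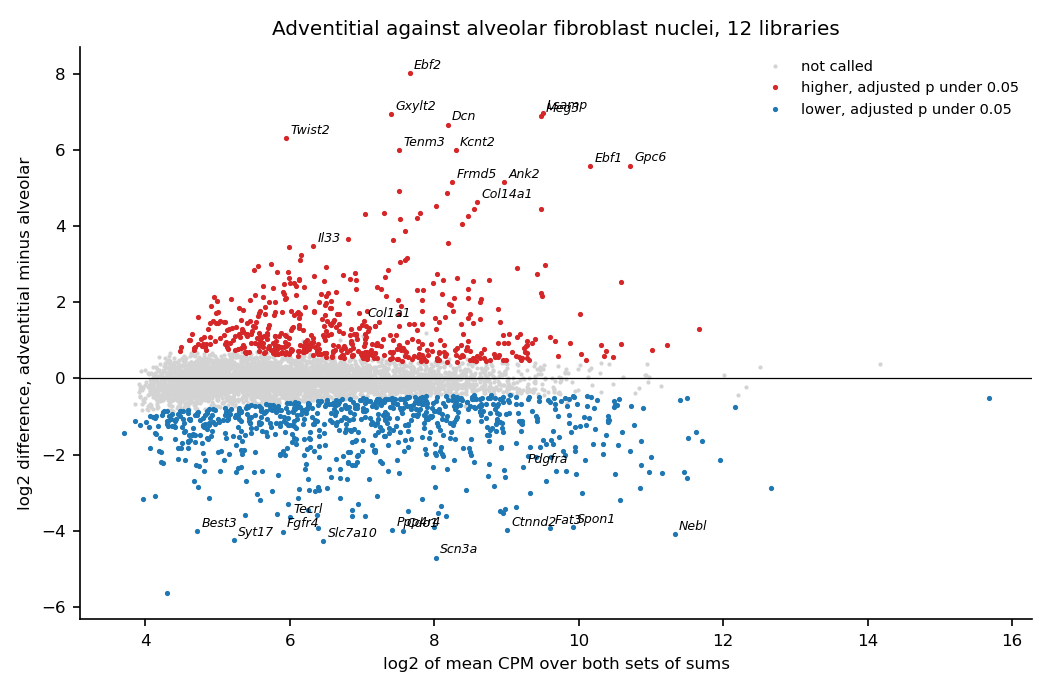
Each of the 5794 genes tested, by the log2 of its mean CPM over both sets and its log2 difference, adventitial minus alveolar fibroblast nuclei. Coloured points passed an adjusted p under 0.05, 540 higher and 780 lower, and labelled genes are named in the text or have the largest differences, from Ebf2 at 8.03 to Scn3a at -4.71.

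The other lists are read beside the 9.32% of all genes that were higher and the 13.5% that were lower. Of 11 clock genes tested of 18, 10 did not pass and Hlf was lower, and of 9 immediate-early genes tested of 18 the 5 genes Junb, Egr1, Jun, Fosl2 and Jund were higher. Of the study's own 22 genes of matrix organisation and protein trafficking, a list it took from cultured fibroblasts of mice with Ephb4 deleted, 15 were tested, Sec24d and Itga5 were higher, Lox was lower and 12 did not pass. Because the members are few, many low genes were not tested: without the filter on low counts, 17 of the 20 adventitial markers were higher and Pcolce2 was lower, among them the eotaxin Ccl11 (24 UMIs in the members), the hyaluronan synthase Has1 (109 UMIs) and Serpinf1. DESeq2 called 1315 genes in the same design.

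The EphB receptors and ephrin-B ligands, the family that NVP-BHG712 addresses, lay near the floor in the members except for Ephb2. Ephb4, the receptor the inhibitor was chosen for, gave 33 UMIs in the members of the 12 libraries, at 0 in 5 of them and at most 30.2 CPM, and averaged 11.6 ± 11.6 CPM against 18.8 ± 7.56 in alveolar fibroblast nuclei (adjusted p = 0.620 in the edgeR fit without the low-count filter). Ephb2 (chr4:136647539-136835988, minus strand) stood at 231, 138 and 171 CPM in PBS_vehicle, 191, 250.4 and 61.2 in PBS_NVP, 0, 182 and 61.3 in Bleo_vehicle and 283, 281 and 31.1 in Bleo_NVP, while alveolar fibroblast nuclei ran from 1.98 to 13.5. It gave 220 UMIs in 356 members and 220 UMIs in 7495 alveolar fibroblast nuclei, and in the same unfiltered fit the log2 difference was 4.31 ± 0.27 (adjusted p = 4.83e-18, higher in 11 of 12 libraries). Efnb1 was lower (log2 -1.24 ± 0.39, adjusted p = 0.0252), and the other 5 genes of the 8 did not pass. Efnb2, the ligand of EphB4, gave 39 UMIs in the members.

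Ebf1 and Ebf2 were among the genes with the largest differences, and the promoters of the genes that were higher or lower were searched for the letters that early B-cell factors are known to bind, TCCC and GGGA with any 2 bases between them, which reads the same on both strands. RefSeq promoters of GRCm38.p6, from 250 bases before to 50 after each annotated start, were at hand for 407 of the 540 genes that were higher, 602 of the 780 that were lower and 3550 of the genes tested and not called. The letters were found for 11 (2.7%), 12 (1.99%) and 44 (1.24%) of these genes, and in 297 of 32851 promoters in all (0.904%). A gene with several starts had several chances, and a match is a description of the letters, not a site of binding. Shown 5′ to 3′ are promoters of Ank2, Hecw2 and Irak3, which had a match and a log2 difference above 2. The matched letters are in capitals. These promoters give the context of a feature that the rule did not use, and other genes with a match above 2 may not be shown.
Ank2, chr3:126998403-126998702, minus strand: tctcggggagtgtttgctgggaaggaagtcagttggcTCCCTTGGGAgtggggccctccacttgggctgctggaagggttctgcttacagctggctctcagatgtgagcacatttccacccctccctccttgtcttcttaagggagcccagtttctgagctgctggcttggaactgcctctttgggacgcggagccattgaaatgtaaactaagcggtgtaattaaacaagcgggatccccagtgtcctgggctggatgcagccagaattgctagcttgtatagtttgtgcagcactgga
Ank2, chr3:127499066-127499365, minus strand: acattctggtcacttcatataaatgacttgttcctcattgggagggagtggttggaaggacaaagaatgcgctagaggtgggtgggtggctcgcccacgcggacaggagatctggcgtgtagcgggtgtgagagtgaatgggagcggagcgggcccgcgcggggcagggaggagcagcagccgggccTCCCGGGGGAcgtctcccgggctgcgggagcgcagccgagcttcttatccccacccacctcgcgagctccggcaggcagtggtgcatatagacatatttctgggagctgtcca
Hecw2, chr1:54194985-54195284, minus strand: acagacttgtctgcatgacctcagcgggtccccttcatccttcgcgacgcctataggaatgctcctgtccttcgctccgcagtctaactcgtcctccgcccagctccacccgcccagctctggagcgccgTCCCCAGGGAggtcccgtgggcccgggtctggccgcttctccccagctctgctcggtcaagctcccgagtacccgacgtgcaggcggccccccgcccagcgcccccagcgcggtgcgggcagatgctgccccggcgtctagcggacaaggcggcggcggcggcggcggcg
Irak3, chr10:120201548-120201847, minus strand: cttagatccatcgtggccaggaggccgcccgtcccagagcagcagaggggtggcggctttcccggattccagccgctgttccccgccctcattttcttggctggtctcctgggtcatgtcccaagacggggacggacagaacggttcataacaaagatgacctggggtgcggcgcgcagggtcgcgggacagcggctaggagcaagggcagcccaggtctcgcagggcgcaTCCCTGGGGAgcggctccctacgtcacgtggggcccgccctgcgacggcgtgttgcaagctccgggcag

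In Ank2, which has 2 such promoters, the match began 213 and 63 bases before the start, in Hecw2 120 bases before and in Irak3 19 bases before. Hecw2, an E3 ubiquitin ligase, had a log2 difference of 4.05, and Irak3, an inhibitory kinase-like protein of Toll-like receptor signalling, of 2.02. The share of genes with the letters was low in every class, and most genes that were higher in the members did not hold them in this window.

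Bleomycin and NVP-BHG712 together were compared with bleomycin and vehicle to ask how injured lungs with and without the inhibitor differed. Batch goes with group here, so inhibitor and batch cannot be told apart. In the members, 23 of 2225 genes passed (1.03%), 4 higher and 19 lower in Bleo_NVP, and 8 of the 19 were mitochondrially encoded. The fit used the sums of all 12 libraries with a mean per group (edgeR quasi-likelihood test, 2-sided, Benjamini-Hochberg), and p-values measure the spread between libraries, each from a separate mouse lung. Cntn4 (chr6:105677660-106699310), a contactin of the immunoglobulin family, stood at 1415, 875 and 405 CPM in Bleo_NVP and at 374, 82.1 and 120.0 in Bleo_vehicle, without overlap (log2 2.54 ± 0.47, adjusted p = 0.00119). In the PBS groups it ran from 295 to 612 CPM. Eda (chrX:99975606-100400762), the ectodysplasin ligand of the tumour necrosis factor family, stood at 1415, 844 and 903 CPM against 249, 182 and 313 (1.74 ± 0.41, adjusted p = 0.0226). Chrm3, a muscarinic acetylcholine receptor gene, stood at 283, 594 and 249 CPM against 0, 36.5 and 65.3 (2.78 ± 0.71, adjusted p = 0.0417), where the 283 CPM of Bleo_NVP replicate 1 are 2 UMIs. Dgkb, a diacylglycerol kinase, was the fourth, with groups that overlapped.

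These 4 genes lay higher in Bleo_NVP without overlap in alveolar fibroblast nuclei as well, as did 24.1% of the 2225 genes. Cntn4 there ran from 52.6 to 78.2 CPM against 13.5 to 42.2, Eda from 560.5 to 691 against 205 to 428, and Chrm3 from 34.3 to 96.2 against 5.41 to 31.1. In nuclei outside both fibroblast sets none of the 4 separated the groups, where 28.6% of the 2225 genes lay higher in Bleo_NVP without overlap. Cntn4 kept its call in 23 of 25 alternative settings and lost it without Bleo_vehicle replicate 2 (log2 2.32) and with at least 5 marker UMIs per member (1.48). Eda kept its call in 14 of 25 settings and Chrm3 in 13 of the 21 in which it was tested. The comparison called 7 genes when Bleo_vehicle replicate 2 was left out, 11 for Bleo_NVP replicate 1 and 14 for Bleo_NVP replicate 2.

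Of the 19 genes that were lower in Bleo_NVP, 13 were lower without overlap in alveolar fibroblast nuclei and 13 in the other nuclei, where 16.7% and 12.3% of the 2225 genes were. Sftpc, the surfactant protein of type II cells, stood at 1369.9, 1386 and 978 CPM in the Bleo_vehicle members, at 0, 0 and 62.3 in Bleo_NVP and at 0 to 245 in the PBS groups. The mitochondrially encoded mt-Co1 stood at 4234, 2535 and 1016 CPM in Bleo_vehicle and at most 228 in the other members. In alveolar fibroblast nuclei of Bleo_vehicle, Sftpc was at 305 to 931 CPM and mt-Co1 at 935 to 2884, against at most 167 and 86.9 in the other groups. Of the 23 genes, 17 separated the 2 groups in the same direction in alveolar fibroblast nuclei without overlap, and 13 did so in the other nuclei, beside 40.8% and 40.9% of the 2225 genes that separated them in either direction. Pcsk5, a proprotein convertase, and Mtss1, a membrane-bending protein, were lower in Bleo_NVP without separating alveolar fibroblast or other nuclei. With the mitochondrially encoded genes left out of the fit, 6 genes were called, and with nuclei that met a reference class left out, 9. The part of RNA from other cells in these calls was not tested.

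Bleo_vehicle against PBS_vehicle compares injured with uninjured lung under vehicle, where injury and batch cannot be told apart. Here 19 of 2225 genes passed (0.854%), 17 higher and 2 lower in Bleo_vehicle, again with 8 mitochondrially encoded genes and Sftpc (log2 3.78 ± 0.56, adjusted p = 8.17e-05). Of the 19, 15 separated the groups in the same direction in alveolar fibroblast nuclei and 13 in the other nuclei, beside 30.7% and 32.4% of all genes tested in either direction. Csmd1, a large transmembrane protein with complement control domains, stood at 249, 1632 and 1010.4 CPM in Bleo_vehicle and 195, 126 and 56.9 in PBS_vehicle (3.01 ± 0.63, adjusted p = 0.0172), and was higher in alveolar fibroblast nuclei as well (104 to 387 against 27.2 to 40.2 CPM). The 2 genes that were lower were Abcc9, the sulfonylurea receptor subunit of ATP-sensitive potassium channels, at 249, 109 and 115 CPM against 420.1, 527 and 341 (-1.78 ± 0.44, adjusted p = 0.0317), and Ugdh, which makes the UDP-glucuronate used for hyaluronan, at 249, 73.0 and 54.7 against 219, 515 and 56.9 (-2.07, adjusted p = 0.0397). Abcc9 overlapped between the groups in alveolar fibroblast nuclei and was lower without overlap in the other nuclei, as were 24.2% of the 2225 genes. Ugdh overlapped in the members and was lower without overlap in alveolar fibroblast nuclei, as were 19.1%. Abcc9 kept its call in 14 of 26 settings. It lost it without PBS_vehicle replicate 1 or 2 or Bleo_vehicle replicate 2 or 3, with log2 values from -1.85 to -1.61, and stood at -0.91 with nuclei that met a reference class left out. The comparison called 11 genes when Bleo_vehicle replicate 2 was left out, and 29, 32 or 31 when PBS_NVP replicate 3, Bleo_NVP replicate 2 or Bleo_NVP replicate 3 was.

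The matrix and marker genes of the members were not called in either comparison. Col14a1, Dcn, Col1a1, Col3a1, Mfap5, Eln, Fn1 and Pdgfra did not pass, and none of the tested members of the lists of adventitial markers, fibrillar collagens, other collagens, elastic fibre genes, proteoglycans, complement genes, growth factors and activated fibroblast genes did. For Bleo_NVP against Bleo_vehicle the median log2 difference was -0.06 over 5 fibrillar collagens, -0.28 over 9 adventitial markers and 0.14 over 7 genes of the study's list, beside -0.02 over the 2225 genes. For Bleo_vehicle against PBS_vehicle it was -0.17, -0.21 and -0.20, beside -0.04. Col3a1, which encodes the fibrillar collagen of compliant tissue, ran from 747 to 1169 CPM in Bleo_vehicle, from 0 to 1218 in Bleo_NVP and from 398 to 1704 in PBS_vehicle, with overlap between the groups. Fn1 stood at 747, 219 and 273 CPM in Bleo_vehicle and at 183, 226 and 114 in PBS_vehicle. A clock gene, Nr1d1, was too low to be tested, at 5.33 CPM in Bleo_vehicle replicate 3 and 0 in the other 2 Bleo_vehicle libraries against 65.1, 87.9 and 114 in PBS_vehicle, with the same order in alveolar fibroblast nuclei (0 to 9.59 against 52.3 to 97.8).

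**Figure D4:**
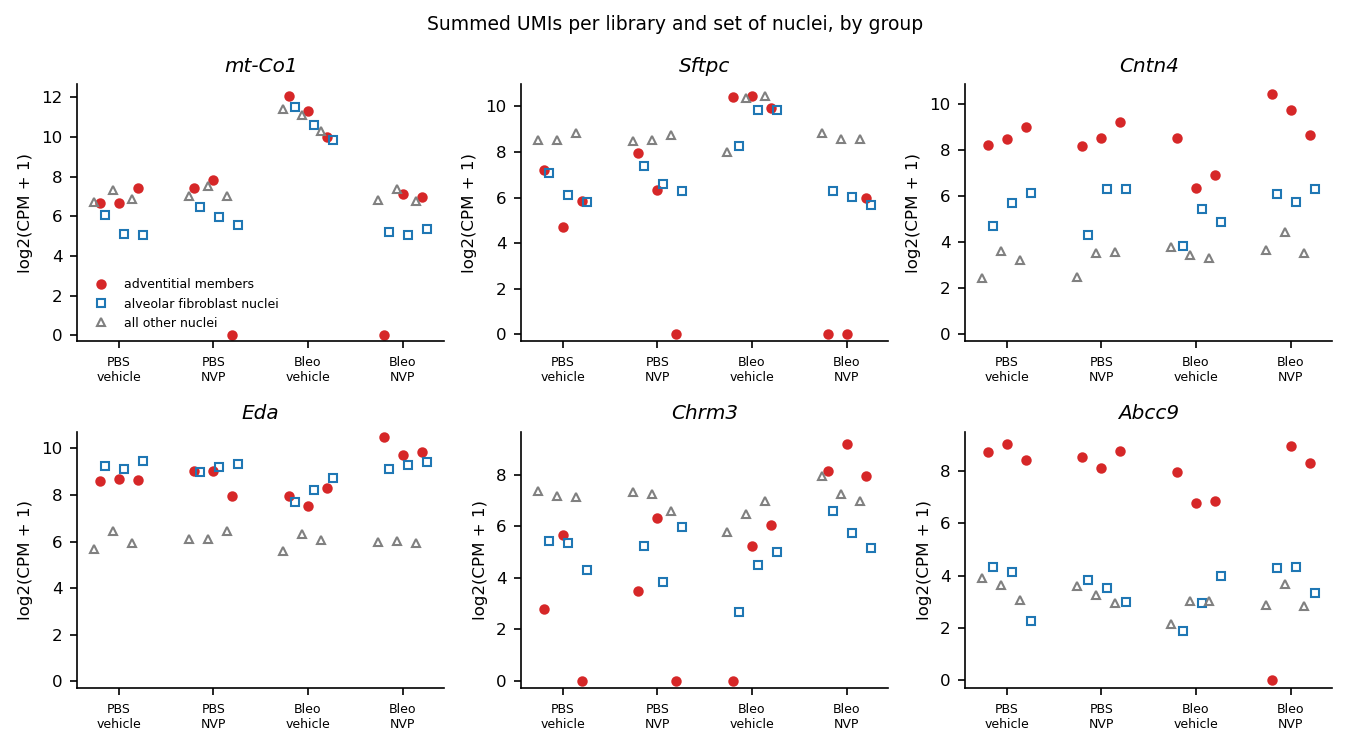
Levels of 6 genes as log2(CPM + 1) of the summed UMIs by group, 1 symbol per library, in adventitial members, alveolar fibroblast nuclei and all other nuclei. mt-Co1 is high in all 3 sets in Bleo_vehicle, Cntn4 and Eda lie higher in Bleo_NVP than in Bleo_vehicle in both fibroblast sets, and Abcc9 lies at 109 to 249 CPM in Bleo_vehicle members.

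Without bleomycin no gene passed the threshold for the inhibitor. PBS_NVP against PBS_vehicle gave 0 of 2225 genes (0%) in edgeR with 30 at an unadjusted p under 0.05, and 0 in DESeq2 with 18. The smallest p among genes without overlap belonged to Ptch1, the hedgehog receptor, at 509.9, 523 and 1651 CPM in PBS_NVP and 343, 251 and 171 in PBS_vehicle (log2 1.41 ± 0.44, adjusted p = 1 in edgeR). Hhip, a hedgehog-binding protein known from peribronchial fibroblasts, stood at 97.3, 193 and 795 CPM against 5.92, 50.2 and 114 (log2 2.95 ± 0.85, adjusted p = 1 in edgeR), and its highest value came from the library with 10 members. Bleo_NVP against PBS_NVP also gave 0 genes (0%), with 88 at an unadjusted p under 0.05 in edgeR and 0 calls and 43 in DESeq2. There Chrm3 came closest (adjusted p = 0.0991 in edgeR), followed by Ptpn13, a tyrosine phosphatase, and Med13, a Mediator subunit, at 991, 578 and 903 CPM against 319, 193 and 306. These counts do not show that the groups were alike, and the Bleo_NVP members number 32. Leaving out Bleo_NVP replicate 2 gave 8 calls in that comparison, and leaving out PBS_NVP replicate 2 gave 1 in the first.

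The interaction of bleomycin and the inhibitor called 10 of 2225 genes (0.449%), each with a more negative difference between inhibitor and vehicle in bleomycin lungs. In the bleomycin groups inhibitor and batch cannot be told apart, so the calls are not assigned to NVP-BHG712. The 10 genes were 6 mitochondrially encoded genes, Sftpc, Kcnip4, Cmss1 and Mtss1, and with the mitochondrially encoded genes left out 2 genes were called. Kcnip4, a potassium channel interacting protein, stood at 125, 392 and 749 CPM in Bleo_vehicle, 0, 31.2 and 0 in Bleo_NVP, 11.8, 25.1 and 0 in PBS_vehicle and 409, 34.1 and 0 in PBS_NVP, and ran from 638 to 2617 CPM in the nuclei outside both fibroblast sets. In those other nuclei Kcnip4 was lower in Bleo_vehicle than in PBS_vehicle without overlap, as were 24.2% of the 2225 genes. There it was also higher in Bleo_NVP than in Bleo_vehicle without overlap, as were 28.6%. Both directions were opposite to those in the members. The interaction called 16 genes without PBS_vehicle replicate 1 and 5 without PBS_NVP replicate 1 or Bleo_NVP replicate 1. It called 6 without Bleo_vehicle replicate 2 and 19 without Bleo_vehicle replicate 3.

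A paired fit asked in which genes the members responded unlike alveolar fibroblast nuclei of the same libraries. For Bleo_NVP against Bleo_vehicle 35 of 8289 genes passed (0.422%), 28 with a more positive and 7 with a more negative difference in the members. Of the 35, 28 separated the 2 groups without overlap in alveolar fibroblast nuclei, each in the opposite direction to the difference, where 33.8% of the 8289 genes did, and 7 separated them in the members, where 8.32% did. The alveolar sums rest on 7495 nuclei and those of the members on 356, so the 2 counts differ in precision. A call is on the members' response minus the alveolar one. Both the excess of separated genes and their opposite direction thus follow in part from the call. Ebf1 was among the 28. It stood at 2491, 903 and 2073 CPM in Bleo_vehicle members and 2406, 2015 and 2367 in Bleo_NVP members, while in alveolar fibroblast nuclei it stood at 48.7, 99.2 and 89.6 against 23.8, 10.7 and 11.6 (log2 difference of the responses 2.72 ± 0.55, adjusted p = 0.00112). Gda, guanine deaminase, and Frmd5, a FERM domain protein, did likewise: Gda in alveolar fibroblast nuclei was at 173, 57.5 and 44.3 CPM in Bleo_vehicle and 0.992, 2.55 and 8.40 in Bleo_NVP, with members at 498, 383 and 211 against 283, 328 and 280.3. Itgbl1, an integrin beta-like secreted protein, moved in both kinds, at 2689, 1203 and 1215 CPM in Bleo_NVP members against 374, 647 and 535, and at 69.4 to 93.1 in alveolar fibroblast nuclei against 130.3 to 224 (1.94, adjusted p = 0.0232).

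Beside these differences, the alveolar fibroblast nuclei of Bleo_vehicle held less Itga8, a gene of their own rule, at 687 to 1426 CPM against 2191 to 3411 in the other groups, and its part in these calls was not tested. Fat3, a protocadherin, was among the 7 genes with a more negative difference: its members were at 0, 31.2 and 0 CPM in Bleo_NVP against 125, 146 and 76.0 in Bleo_vehicle, and alveolar fibroblast nuclei ran from 1880.3 to 2232 against 343 to 575. Adgrg6, an adhesion G protein-coupled receptor of the same 7, was at 0 in the Bleo_NVP members, so no fold is given for it. Over the 8289 genes the median was -0.26, and scaling by DESeq2 size factors moved it by 0.19 and the count to 60. DESeq2 called 0 genes, with 343 at an unadjusted p under 0.05 against 595 in edgeR, and thinning to 1000 UMIs left 0. Leaving out Bleo_vehicle replicate 2 or 3 gave 8 genes, Bleo_NVP replicate 3 gave 19, and the count was 8 with nuclei that met a reference class left out.

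For Bleo_vehicle against PBS_vehicle, 18 of 8289 genes responded unlike in the 2 kinds (0.217%), 8 with a more positive and 10 with a more negative difference in the members. Of these, 10 separated the groups in alveolar fibroblast nuclei and 3 in the members, beside 24.8% and 9.13% of the 8289 genes. Here too the call uses both responses, so these counts follow in part from it. Gda and Frmd5 were among the 10, with differences of -2.33 and -2.25, and so were Ptprj, a receptor tyrosine phosphatase, and Sorcs2, a sorting receptor. Kcnip4 was among the 8 (4.84 ± 0.80, adjusted p = 1.34e-05). Of these 8 genes, 7 were over 10 times higher in a reference class than in the members, as were 9 of the 18 and 7.08% of the genes tested, and the part of RNA from those cells was not tested. Eln did not pass: alveolar fibroblast nuclei held 3668, 897 and 1114 CPM in Bleo_vehicle against 737, 430.4 and 191 in PBS_vehicle, and the members 249, 812 and 417 against 953, 351 and 683 (log2 difference of the responses -1.70 ± 0.53, adjusted p = 0.182). DESeq2 called 2 genes, with 203 at an unadjusted p under 0.05, and the count fell to 3 when Bleo_vehicle replicate 3 was left out, to 11 for PBS_vehicle replicate 2 and to 10 for PBS_vehicle replicate 3.

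**Figure D5:**
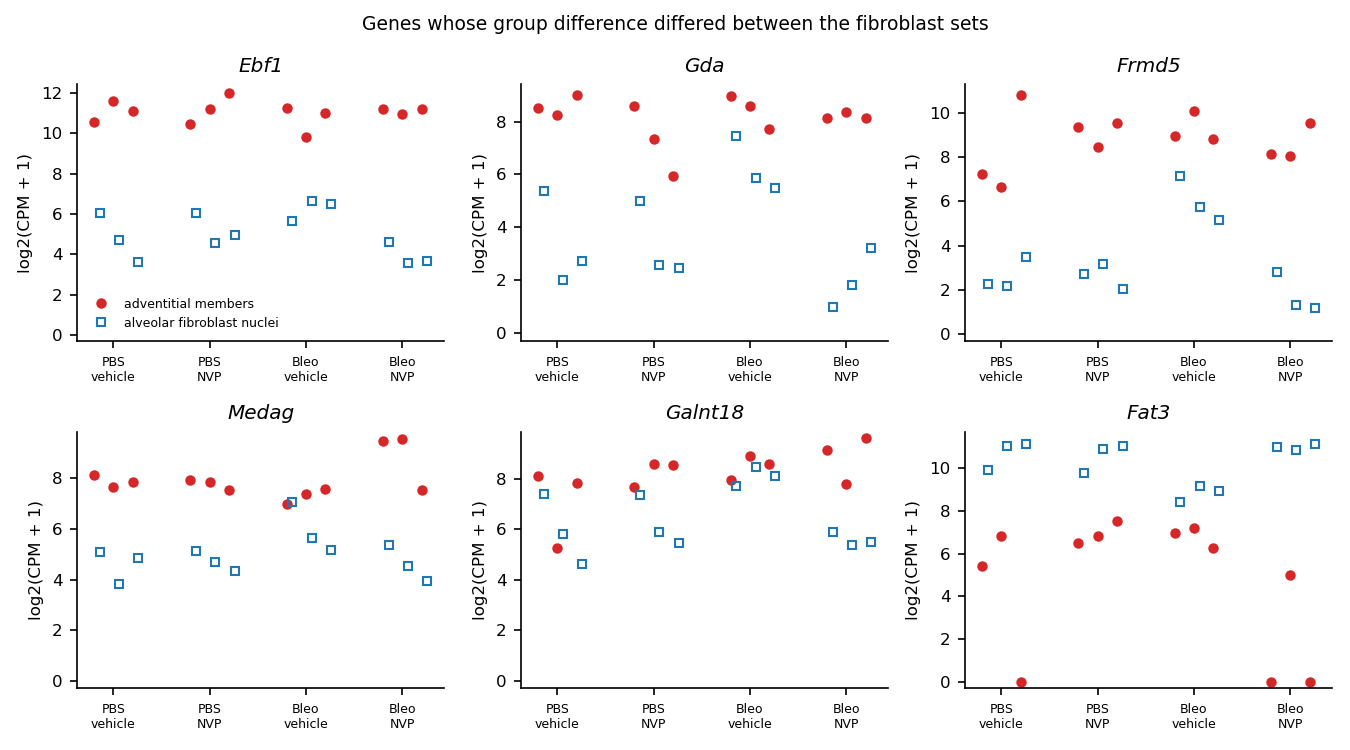
Levels of 6 genes whose difference between Bleo_NVP and Bleo_vehicle was unlike in the fibroblast sets, as log2(CPM + 1) of the summed UMIs by group, 1 symbol per library. For Ebf1 the members lie between 903 and 2491 CPM in both bleomycin groups, and alveolar fibroblast nuclei at 48.7 to 99.2 CPM in Bleo_vehicle and 10.7 to 23.8 CPM in Bleo_NVP.

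Within the members, those with a Pi16 UMI were set against those admitted by Scara5 without Pi16, in the libraries with both. Of 397 genes tested, 0 passed (0%) in edgeR, with 14 at an unadjusted p under 0.05, and 0 in DESeq2 with 28. The smallest p belonged to Kcnt2 (log2 0.91 ± 0.32 toward the Pi16-detected members), Man1a, a Golgi mannosidase, and Plcxd3. Col14a1 (0.38 ± 0.28), Dcn (0.18 ± 0.24) and Col3a1 (-0.10 ± 0.25) did not pass, each with an adjusted p of 0.974 in edgeR. Without the filter on low counts 2 genes were called. The split rests on detection of genes of the rule, in members of unequal depth. In PBS_vehicle replicate 1, 84.6% of members held a Pi16 UMI, at a median of 6162.5 UMIs per member. In PBS_vehicle replicate 3 it was 30.0%, at a median of 1728.5. The lack of calls does not show that the 2 kinds of member were alike.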

How the data were processed

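Single-nucleus 3′ RNA libraries of 12 mouse lungs were made by the authors with droplet chemistry, aligned to mm10 and counted with Cell Ranger (version 7.0 in the submitters' processing notes, while the study's methods name another version), and the deposited matrices hold raw UMI counts per gene and nucleus, before the authors' removal of free RNA, doublets and batch effects. Counts were summed per library over the members, over alveolar fibroblast nuclei and over the rest. Levels (CPM) are these sums scaled to a common total per library, before TMM. Sums were tested with edgeR 4.0.16 in R 4.3.3 (filterByExpr, TMM, robust quasi-likelihood fit, Benjamini-Hochberg threshold 0.05), with a mean per group or, between kinds of nuclei, the library as a block, and with DESeq2 1.42.0 as an alternative. Shares were compared with 2-sided exact permutation tests (scipy 1.17.1), and doublets were scored with scanpy 1.11.5 and left in the main fits. The scripts were tested on simulated data.

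Library totals ran from 3556084 to 61947690 UMIs, and p-values measure the spread between these libraries. Genes were named by rule: up to 12 called genes per direction with the largest change, a mean of at least 20 CPM and no overlap between groups (the same sign in at least 10 of 12 libraries in paired fits), all called members of the lists, and a fixed set of fibroblast genes. The members, lists and tests were chosen with earlier results of these data known. Replicate numbers did not pair the libraries: of 18 pairs with the same number, 3 had a correlation of deviations above 0.1. Alternatives changed the scaling, filter, tool, marker threshold, doublets, depth and libraries.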

Additional observations from a re-analysis of the deposited data

Results flagged for a closer look

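Differences between groups in an effect were tested directly in 3 places. The difference between inhibitor and vehicle libraries was unlike in bleomycin and PBS lungs in 10 of 2225 genes in the members, 6 of them mitochondrially encoded. In the bleomycin groups inhibitor and batch cannot be told apart. The difference between Bleo_NVP and Bleo_vehicle was unlike in adventitial and alveolar fibroblast nuclei in 35 of 8289 genes, and that between Bleo_vehicle and PBS_vehicle in 18. The 3 measures of the members' share were screened for a single library far from the rest over the 6 bleomycin and over the 6 PBS libraries, and no gap passed Dixon's critical value of 0.625. The widest gap was 0.487 of the range, for the lowest thinned share among the bleomycin libraries. Groups of 3 libraries were not screened.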

How the results depend on the processing

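Few members, 4 in each of 2 libraries, and the batch that goes with each bleomycin group limit what follows. For Bleo_NVP against Bleo_vehicle the 23 calls became 42 without the low-count filter, 10 with the compared libraries alone, 15 without doublets, 8 and 10 at 3 and 5 or more marker UMIs, 9 without nuclei that met a reference class, 9 at 500 UMIs and 1% mitochondrial, 6 without mitochondrial genes, and 7 to 30 with a library left out. For Bleo_vehicle against PBS_vehicle the 19 became 53, 11 (reference classes), 7 (500 UMIs and 1%), 9 (mitochondrial genes) and 39 (libraries with at least 20 members), and 11 to 32 with a library left out. PBS_NVP against PBS_vehicle gave 2 without the filter and 0 to 1 with a library left out. Bleo_NVP against PBS_NVP gave 6 without the filter, 1 with the compared libraries alone, 1 without genes over 10 times higher in a reference class, and 0 to 8. The 10 of the interaction became 34 without the filter, 22 with the replicate block, 6 without doublets, 2 at 500 UMIs and 1%, 2 without mitochondrial genes, 5 with libraries of at least 5 members, and 5 to 19.

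Adventitial against alveolar nuclei gave 2362 calls without the filter, 759 without reference-class nuclei, 704 after thinning and 1133 to 1540 with a library left out. Of the unlike differences, the 35 became 60 with DESeq2 size factors, 0 in DESeq2, 13 and 15 at 3 and 5 marker UMIs, 8 (reference classes), 10 (500 UMIs and 1%), 0 thinned and 8 to 45. The 18 became 35, 2, 8 (doublets), 10 (5 marker UMIs), 3 (reference classes), 11 (500 UMIs and 1%), 0 thinned, 9 (genes high in a class), 37 (at least 20 members) and 3 to 26. The Pi16 split gave 2 without the filter and 0 with any library left out.

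Share differences in points were, for Bleo_NVP minus Bleo_vehicle, -0.0436 thinned, -0.00743 and -0.0400 at 3 and 5 marker UMIs, -0.0643 at 500 UMIs and 1%, -2.75 of both fibroblast kinds and -0.184 to 0.210 with a library left out. Bleo_vehicle minus PBS_vehicle was 1.90 of both kinds and -0.337 to 0.0569. PBS_NVP minus PBS_vehicle was -0.0954 thinned, -0.0325 and -0.0989 at 3 and 5 marker UMIs and -0.101 to 0.137. Bleomycin minus PBS was 0.527 of both kinds and -0.228 to -0.0708. In the unlike fits direction reversed for Fos (-4.80 without Bleo_NVP replicate 3, and up to 10.47 without others), Thsd7a (-7.90 without Bleo_NVP replicate 2, and up to 3.64), Nebl and Dach1 (0.00705 and 6.89 without reference-class nuclei) and Bcl11a (2.82 without PBS_vehicle replicate 1, and down to -7.21), and the cause was not tested. Of 7038 values of named genes under alternatives, 5929 kept direction and side of the threshold. Libraries with at least 20 members left no Bleo_NVP library to compare. The replicate block gave 26 and 22 calls in the first 2 comparisons.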
